A study of Mus musculus with 15 samples.

Results

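The BCL2 family decides whether the mitochondrial outer membrane of a cell stays intact, and 10 of its genes were followed here in CD8+ T cells: the survival genes Bcl2, Bcl2l1, Mcl1 and Bcl2a1b, the pore-forming effectors Bax and Bak1, and the BH3-only genes Bcl2l11, Bbc3, Bid and Pmaip1. The genes were a fixed list of symbols, matched by Ensembl identifier in GENCODE M21, and all 10 were found among 55536 annotated genes in the count table. All 10 also passed the filter on low counts, which left 17366 genes for testing. Bcl2a1b belongs to a cluster of near-identical copies, so Bcl2a1a, Bcl2a1c and Bcl2a1d are given beside it.

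RNA was sequenced from CD8+ T cells of OT-I mice, a C57BL/6J line whose T cells carry a transgenic receptor for an ovalbumin peptide presented on MHC class I. The study's methods describe its OT-I donors as lacking Rag1 or Rag2, so that their lymphocytes are largely T cells of that receptor. Naive libraries (n = 5) came from OT-I mice that received no transfer and no stimulation. Ag libraries (n = 5) were made of OT-I cells that had been moved into C57BL/6J hosts without the transgene, which were injected with the peptide and a control rat IgG, and Ag+Costim libraries (n = 5) of such cells from hosts given the peptide with agonist antibodies to the costimulatory receptors OX40 (CD134) and 4-1BB (CD137). The labels place collection of spleen and lymph nodes at day 4, and the methods at a slightly earlier hour, followed by a sort of the transferred cells. Naive cells were therefore never transferred into a second host, and the effect of transfer and that of antigen cannot be told apart in a comparison with Naive. The comparisons ask how the survival and death genes differed after antigen, and what OX40 and 4-1BB engagement added to antigen.

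Survival proteins such as BCL2, BCL-XL (from Bcl2l1), MCL1 and A1 (from the Bcl2a1 genes) hold the effectors BAX and BAK in check by binding them and by binding the BH3-only proteins. BH3-only proteins such as BIM (Bcl2l11), PUMA (Bbc3), NOXA (Pmaip1) and BID occupy the survival proteins or activate the effectors directly, which opens the outer membrane and releases cytochrome c. In T cells, IL-7 receptor signalling sustains BCL2 in the resting state, BIM is a main driver of the death of activated cells, and A1 is induced through the antigen receptor and NF-kB.

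Total counts per library ranged from 4865952 (Ag 3) to 25280667 (Naive 3). All 7 CD8 T cell markers (Cd8a, Cd8b1, Cd3d, Cd3e, Cd3g, Cd247, Trac) had counts in every library, with summed levels of 4923 to 8499 CPM (counts scaled to the same total in every library) in Naive, 3910 to 7939 in Ag and 4011 to 5077 in Ag+Costim. A few libraries stood apart. Naive 5 had 1036 CPM over 9 myeloid markers where Naive 1 to 4 had 18.4 to 202, and 374 CPM of the mitotic gene Birc5 against 17.6 to 170.5. Ag 3 had 1238 CPM over 6 erythroid markers where the rest of its group had 13.3 to 168, and the smallest share of its reads counted (16.9%). Over all libraries, 8 B cell markers summed to 522 to 1663 CPM and 4 CD4 T cell markers to 3.70 to 36.8 CPM. Ag 2 and Ag 5 were made from recorded input amounts of 1.4 and 1.8, without a stated unit, against 9.4 to 10 in Ag 1, Ag 3 and Ag 4. Lane 2 carried the whole Ag group with Ag+Costim 1 to 3, and lane 3 the whole Naive group with Ag+Costim 4 and 5. Ag and Naive shared no lane, so their comparison has no value within a lane. In bulk RNA, fewer cells that express a gene and less RNA per cell cannot be told apart.

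The survival genes did not move as a block. Against Naive, Bcl2 and Mcl1 were lower and Bcl2a1b and Bcl2l1 were higher in Ag+Costim, while the BH3-only genes Bbc3 and Bcl2l11 were lower and Bid was higher. In edgeR's quasi-likelihood test over all 17366 genes, 3 of the 10 members were called in Ag vs Naive at a false discovery rate (FDR) under 0.05, 1 higher and 2 lower, where 6.71% of all genes were called (3.05% higher and 3.66% lower). For Ag+Costim vs Ag, 0 of 10 members were called by edgeR, against 0.0346% of all genes, with 4 members and 4647 of all 17366 genes at an unadjusted p under 0.05, while DESeq2 called 2, against 14.6% of all genes. Between Ag+Costim and Naive, 8 of 10 were called, 4 higher and 4 lower, where 44.7% of all genes were called (21.0% higher and 23.6% lower). The comparisons with Naive share the same 5 control libraries. The labels do not say whether the 5 libraries of a group came from separate mice, while the study describes its libraries as biological replicates from individual animals.

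**Figure D1:**
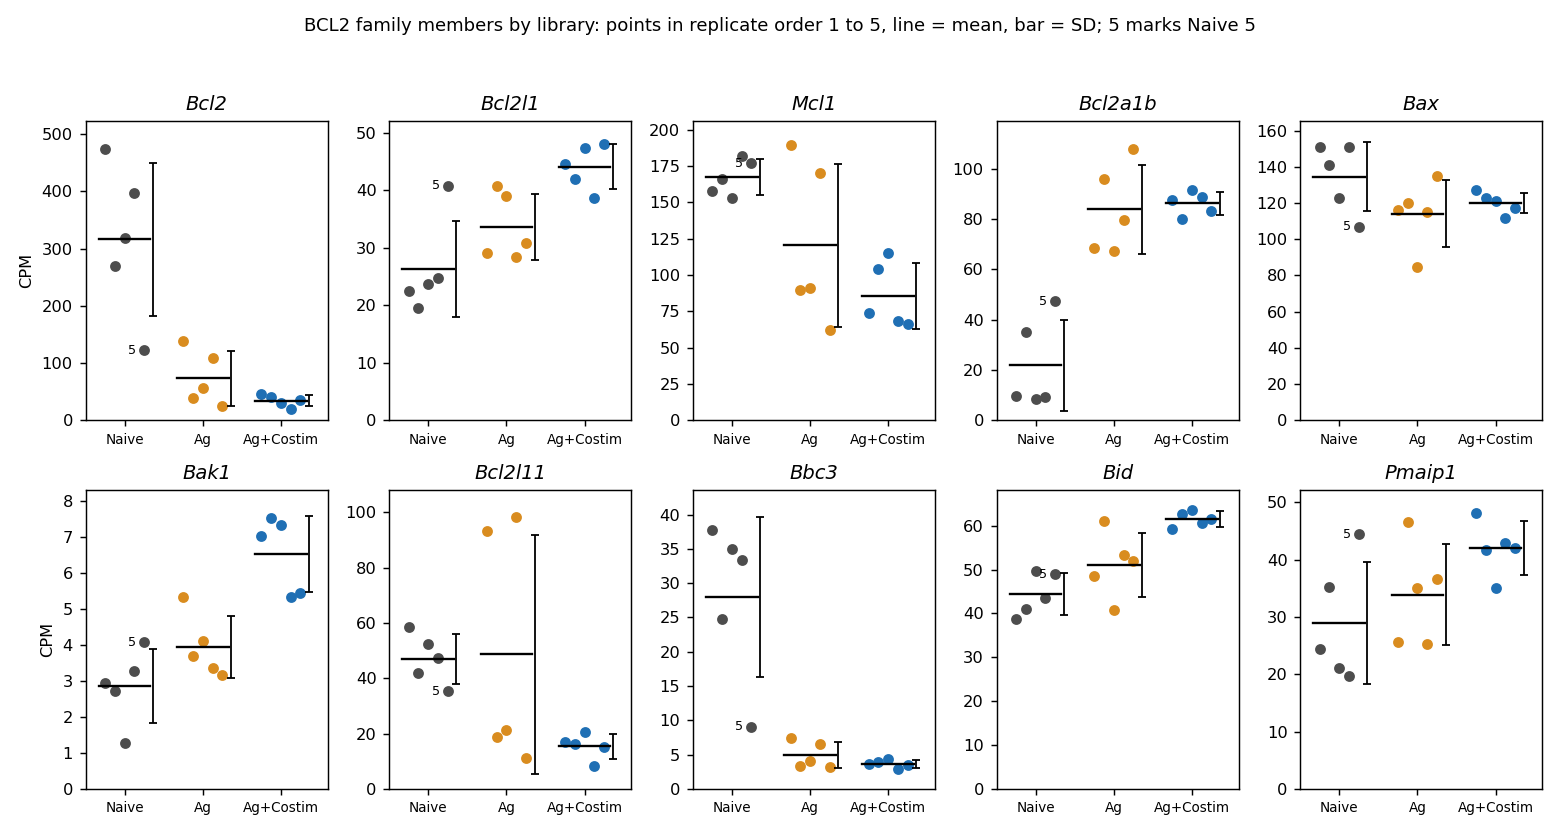
Levels of the 10 members in each of 15 libraries, in CPM on linear axes that start at 0. Points are libraries in replicate order, lines are group means and bars are 1 SD (n = 5), and the digit 5 marks Naive 5. Bcl2 and Bbc3 sit low in every Ag and Ag+Costim library beside Naive 1 to 4, Bcl2a1b sits high, Bcl2l11 splits the Ag libraries (93.2 and 98.3 CPM in Ag 1 and Ag 4, 11.3 to 21.2 in the others), and the groups overlap for Bax.

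Bcl2 (ENSMUSG00000057329.7, chr1:106538178-106714274, minus strand, GRCm38) encodes the survival protein after which the family is named. Its levels in Naive 1 to 5 were 475, 270.3, 318, 398 and 122 CPM. In Ag 1 to 5 they were 139, 38.9, 57.1, 108 and 25.0 CPM, and in Ag+Costim 1 to 5 they were 46.0, 40.9, 29.8, 19.9 and 35.7 CPM. All Ag+Costim libraries lay below all Naive libraries, and 4 of 5 Ag libraries did, with Ag 1 just above Naive 5. Bcl2 fell 4.16-fold in Ag vs Naive (log2 fold change -2.06 ± 0.41 SE, edgeR FDR 0.0145) and 8.20-fold in Ag+Costim vs Naive (-3.04 ± 0.43, edgeR FDR 0.00130), the latter called under each of 21 alternatives. The former was lost in a fit of the 10 libraries alone (FDR 0.122) and with lane as a term (FDR 0.580). Between Ag+Costim and Ag the log2 difference was -0.98 ± 0.40 (edgeR FDR 0.142), and it passed at -1.18 without Ag 5 (FDR 0.0430). It was -0.68 without Ag 1 (edgeR FDR 0.362), and 3 of 21 alternatives called it. A gene on the other strand, D630008O14Rik, shares 6.09% of the exon bases of Bcl2 and had means of 4.22, 2.37 and 0.288 CPM in Naive, Ag and Ag+Costim.

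Mcl1 (ENSMUSG00000038612.16, chr3:95658788-95663176, plus strand) encodes a short-lived survival protein that T cells need at every stage. Naive 1 to 5 had 158, 166, 153, 182 and 177 CPM. Ag 1 to 5 had 189.5, 89.4, 90.8, 170.0 and 62.0 CPM, and Ag+Costim 1 to 5 had 73.8, 104, 115, 68.0 and 66.1 CPM. Ag 1 was above every Naive library and Ag 4 was among them, while Ag 2, Ag 3 and Ag 5 were below all of them, as were all Ag+Costim libraries. Mcl1 fell 1.77-fold in Ag+Costim vs Naive (log2 fold change -0.82 ± 0.23 SE, edgeR FDR 0.0163). The call was lost without Ag+Costim 4 (-0.66, FDR 0.0728) and with no filter on low counts (-0.65, FDR 0.141). The differences in Ag vs Naive (-0.42 ± 0.23, edgeR FDR 0.229) and Ag+Costim vs Ag (-0.40 ± 0.23, edgeR FDR 0.284) did not pass.

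Bcl2l1 (ENSMUSG00000007659.18, chr2:152780668-152831728, minus strand) encodes BCL-XL, a survival protein known to be induced by CD28 and other costimulatory signals. Naive 1 to 5 had 22.4, 19.6, 23.7, 24.8 and 40.8 CPM. Ag 1 to 5 had 29.1, 40.7, 39.0, 28.4 and 30.8 CPM, and Ag+Costim 1 to 5 had 44.6, 41.9, 47.4, 38.6 and 48.0 CPM. Naive 5 was above every Ag library and above 1 of the Ag+Costim libraries, while Naive 1 to 4 lay below every other library. Bcl2l1 rose 1.85-fold in Ag+Costim vs Naive (log2 fold change 0.89 ± 0.21 SE, edgeR FDR 0.00855), and the difference within lane 3 was 0.88 (FDR 0.0524). The call held in 19 of 21 alternatives. In Ag vs Naive the log2 difference was 0.45 ± 0.21 (edgeR FDR 0.172), and it passed at 0.71 without Naive 5 (FDR 0.0105). It was called in 2 of 20 alternatives. Against Ag it was 0.44 ± 0.21 (edgeR FDR 0.197), and it passed at 0.67 without Ag 2 (FDR 0.0476). Of 21 alternatives, 3 called the difference against Ag.

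Bcl2a1b (ENSMUSG00000089929.1, chr9:89199209-89207827, plus strand) encodes a form of A1, a survival protein of activated lymphocytes and of granulocytes. It had 9.47, 34.9, 8.43, 9.30 and 47.4 CPM in Naive 1 to 5. Ag 1 to 5 had 68.5, 95.9, 67.4, 79.6 and 108 CPM, and Ag+Costim 1 to 5 had 87.6, 80.1, 91.6, 88.6 and 83.2 CPM. Every stimulated library was above every Naive library, and the Ag range enclosed that of Ag+Costim. Bcl2a1b rose 4.07-fold in Ag vs Naive (log2 fold change 2.02 ± 0.46 SE, edgeR FDR 0.0216) and 4.28-fold in Ag+Costim vs Naive (SE 0.46 on the log2 scale, edgeR FDR 0.00655). The first of these calls was lost without Naive 1 (FDR 0.0637), without Naive 3 (FDR 0.0593) or without Naive 4 (FDR 0.0620), without Ag 2 and Ag 5 together (FDR 0.0715), in a fit of the 10 libraries alone (FDR 0.141) and with lane as a term (FDR 0.626). Between Ag+Costim and Ag the log2 difference was 0.07 ± 0.44 (edgeR FDR 0.927). Naive 5 and Naive 2, the highest Naive libraries for Bcl2a1b, also had the highest summed myeloid markers of that group (1036 and 202 CPM), and the part of other cells in these values was not tested. The summed myeloid markers of Ag (69.6 to 206 CPM) and Ag+Costim (86.0 to 182 CPM) lay within the Naive range (18.4 to 1036 CPM), whose top is Naive 5 with much S100a8 and S100a9. Single markers of other cells were higher in Ag than in Naive without overlap, as Bcl2a1b was. The myeloid marker Cd68 had 2.54 to 14.2 CPM in Naive, 16.4 to 25.3 in Ag and 12.5 to 23.2 with Ag+Costim. The B cell marker Cd22 had 0.610 to 11.4 CPM in Naive, 13.5 to 49.7 in Ag and at most 18.9 with Ag+Costim, and Igkc had 0.633 to 12.9, 14.4 to 273 and 46.3 to 94.7 CPM. The part of other cells in the Bcl2a1b values was not tested.

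The Bcl2a1 copies share much of their sequence, and reads can be split between them. Of all 50-base windows in the annotated transcripts of Bcl2a1b, the length of the reads in the labels, 57.6% also occurred in a transcript of another copy. The share was 69.0% for Bcl2a1a, 79.5% for Bcl2a1d and 10.4% for Bcl2a1c. A further annotated gene, Gm29094, shares 49.1% of the exon bases of Bcl2a1b on the same strand and had means of 4.31, 6.01 and 5.73 CPM in Naive, Ag and Ag+Costim. The counts of the single copies are thus uncertain. Bcl2a1a rose from 11.9 ± 12.6 CPM in Naive (SD, n = 5) to 43.0 ± 2.35 in Ag+Costim (log2 fold change 1.97 ± 0.58 SE, edgeR FDR 0.0182). Bcl2a1d rose from 20.6 ± 22.7 to 72.7 ± 4.01 CPM (1.93 ± 0.59, edgeR FDR 0.0217). Bcl2a1c rose from 0.730 ± 0.888 to 2.65 ± 0.215 CPM (1.97 ± 0.66, edgeR FDR 0.0287). Between Ag and Naive, the log2 differences of Bcl2a1a (1.81 ± 0.58, edgeR FDR 0.0695), Bcl2a1d (1.78 ± 0.59, edgeR FDR 0.0783) and Bcl2a1c (1.62 ± 0.66, edgeR FDR 0.129) did not pass.

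The start regions of the copies that moved together are shown because they are nearly the same sequence. Each is a RefSeq window on GRCm38.p6 from 250 bases before to 50 bases after the annotated start, in the direction of the gene. Capitals in Bcl2a1a and Bcl2a1d mark bases without an identical partner in the other, and capitals in Bcl2a1b mark those without an identical partner in Bcl2a1a.
Bcl2a1a (chr9:88956670-88956969, plus strand): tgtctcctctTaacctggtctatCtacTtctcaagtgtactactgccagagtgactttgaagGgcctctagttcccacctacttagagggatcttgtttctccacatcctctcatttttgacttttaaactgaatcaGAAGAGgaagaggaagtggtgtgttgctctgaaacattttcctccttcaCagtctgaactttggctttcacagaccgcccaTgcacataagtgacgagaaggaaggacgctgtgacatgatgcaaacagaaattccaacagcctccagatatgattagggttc
Bcl2a1d (chr9:88731801-88732100, minus strand): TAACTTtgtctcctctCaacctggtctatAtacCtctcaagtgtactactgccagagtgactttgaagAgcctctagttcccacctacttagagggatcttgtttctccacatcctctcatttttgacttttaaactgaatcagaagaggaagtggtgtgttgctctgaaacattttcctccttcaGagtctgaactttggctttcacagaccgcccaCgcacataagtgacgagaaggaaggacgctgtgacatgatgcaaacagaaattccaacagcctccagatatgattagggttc
Bcl2a1b (chr9:89199023-89199322, plus strand): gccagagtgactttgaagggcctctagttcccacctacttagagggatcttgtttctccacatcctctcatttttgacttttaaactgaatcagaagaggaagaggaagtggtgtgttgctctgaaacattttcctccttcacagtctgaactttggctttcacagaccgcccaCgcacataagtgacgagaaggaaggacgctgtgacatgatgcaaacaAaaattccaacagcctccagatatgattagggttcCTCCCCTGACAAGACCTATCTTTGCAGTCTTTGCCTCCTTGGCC
Bcl2a1a and Bcl2a1d had 288 identical bases, 6 mismatches and 6 gap bases in their overlap (96.0% identity). Bcl2a1a and Bcl2a1b had 254 identical bases and 2 mismatches (99.2%), and the annotated start of Bcl2a1b lies further downstream, which gives it the block of capitals at its end. The overlap of Bcl2a1b with Bcl2a1c was 95.7% identical.

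Per unit of transcript length the make-up of the survival transcripts differed between the groups. Levels per length, in TPM (counts over transcript length, scaled to the same total in each library), were summed over Bcl2, Mcl1, Bcl2l1, Bcl2l2, Bcl2l10 and the Bcl2a1 copies. This sum was 289 ± 72.0 TPM in Naive (SD, n = 5), 425 ± 49.1 in Ag and between 439 and 492 in the Ag+Costim libraries. Bcl2 held 54.5%, 26.1%, 43.6%, 47.1% and 8.40% of it in Naive 1 to 5, between 1.18% and 10.4% in Ag, and between 1.08% and 2.73% in Ag+Costim. The Bcl2a1 copies together held 14.0%, 46.3%, 15.4%, 14.3% and 65.2% in Naive 1 to 5. They held 63.9% to 89.9% in Ag and 80.7% to 86.8% in Ag+Costim. Naive 5 lay outside the range of Naive 1 to 4 and inside the Ag range in both shares. Mcl1 held 19.9% to 33.6% in Naive, 5.24% to 20.9% in Ag and 6.69% to 10.7% in Ag+Costim, whereas Bcl2l1 held 3.64% to 7.31% in any library. These shares are a description and were not tested.

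**Figure D2:**
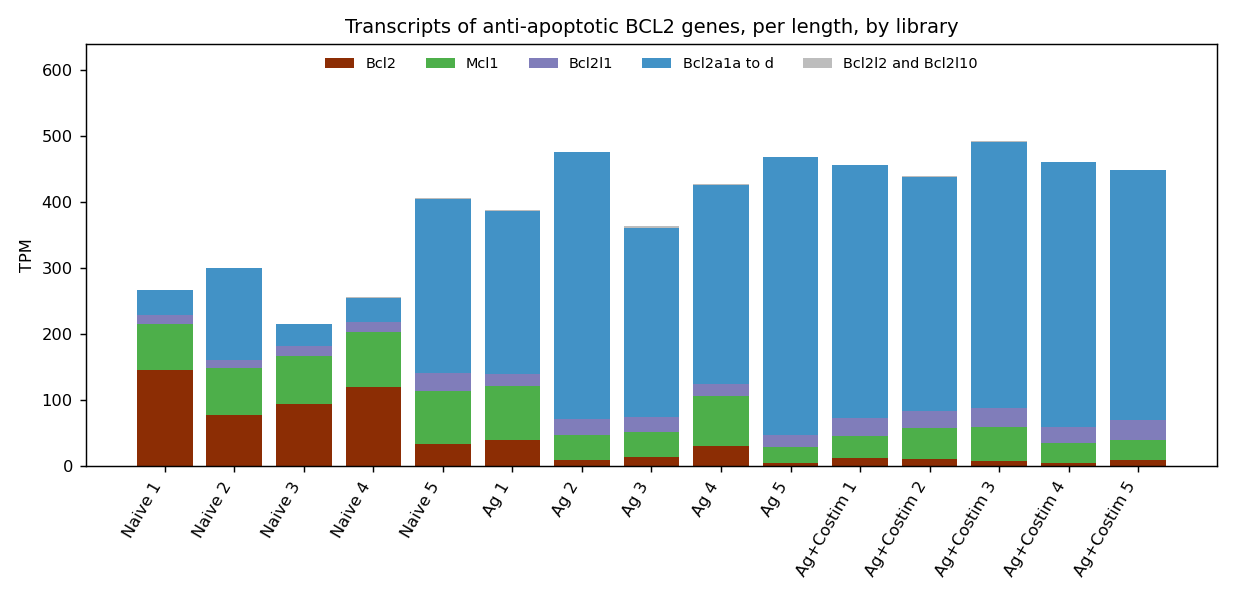
Summed levels of survival transcripts in each library, in TPM, with each bar split by gene (Bcl2l2 and Bcl2l10 are too low to see in most). Bcl2 and Mcl1 make up most of the bar in Naive 1, 3 and 4, and the Bcl2a1 copies make up 63.9% to 89.9% of it in each Ag library and 80.7% to 86.8% in each Ag+Costim library.

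Of the effectors, Bak1 rose in Ag+Costim vs Naive, and Bax passed edgeR's main test in no comparison. Bax (ENSMUSG00000003873.11, chr7:45461697-45466898, minus strand) had 151, 141, 123, 151 and 107 CPM in Naive 1 to 5. Ag 1 to 5 had 116, 120.0, 84.7, 115 and 135 CPM, and Ag+Costim 1 to 5 had 127, 123, 121, 112 and 117 CPM. The 3 groups overlapped. The log2 differences were -0.13 ± 0.13 in Ag vs Naive (edgeR FDR 0.500), 0.12 ± 0.13 in Ag+Costim vs Ag (edgeR FDR 0.574) and -0.01 ± 0.13 in Ag+Costim vs Naive (edgeR FDR 0.942). The last of these took either sign over the 21 alternatives, from -0.17 to 0.16, and was called in 0 of them. Voom with quality weights called Bax in Ag vs Naive (-0.34, FDR 0.0168), 1 of 20 alternatives to do so. In Ag+Costim vs Ag, 2 of 21 alternatives called it: voom (0.26, FDR 0.0160) and edgeR without Ag 2 and Ag 5 (0.49, FDR 0.0145).

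Bak1 (ENSMUSG00000057789.14, chr17:27019810-27029009, minus strand) encodes the effector that resides in the mitochondrial membrane even in healthy cells. Its counts were few, 213 in all Naive libraries together, 234 in Ag and 489 in Ag+Costim. Naive 1 to 5 had 2.95, 2.72, 1.27, 3.28 and 4.08 CPM, Ag 1 to 5 had 5.34, 3.70, 4.11, 3.37 and 3.17 CPM, and Ag+Costim 1 to 5 had 7.04, 7.53, 7.35, 5.33 and 5.44 CPM. All Ag+Costim libraries were above all Naive libraries, and 4 of 5 were above all Ag libraries. Bak1 rose 2.53-fold in Ag+Costim vs Naive (log2 fold change 1.34 ± 0.27 SE, edgeR FDR 0.00457), and the difference within lane 3 was 1.09 (FDR 0.0619). The call held in 19 of 21 alternatives. Against Ag the log2 difference was 0.80 ± 0.27 (edgeR FDR 0.0930), and it passed in DESeq2 (FDR 0.0357) and without Ag 2 (0.91, edgeR FDR 0.0482). It was called in 4 of 21 alternatives. Between Ag and Naive it was 0.54 ± 0.27 (edgeR FDR 0.195). Ggnbp1, listed under 2 identifiers on the other strand, shares 18.2% and 7.35% of the exon bases of Bak1, and the second of these entries had means of 28.4, 14.5 and 13.9 CPM in Naive, Ag and Ag+Costim. The library kit does not mark strand, so reads in the shared bases cannot be told apart.

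The BH3-only genes went in different directions. Bbc3 (ENSMUSG00000002083.13, chr7:16308393-16318205, plus strand) encodes PUMA, a potent BH3-only protein induced by p53 and by FOXO factors. It had 37.8, 24.8, 35.0, 33.4 and 9.02 CPM in Naive 1 to 5. Its levels in Ag 1 to 5 were 7.44, 3.31, 4.11, 6.50 and 3.22 CPM, and Ag+Costim 1 to 5 had 3.61, 3.88, 4.28, 2.85 and 3.47 CPM. Every stimulated library lay below every Naive library, with Naive 5 nearest to them. Bbc3 fell 5.40-fold in Ag vs Naive (log2 fold change -2.43 ± 0.32 SE, edgeR FDR 0.00399) and 6.89-fold in Ag+Costim vs Naive (-2.78 ± 0.32, edgeR FDR 0.000590). These were the lowest FDR values of the 10 members in both comparisons. The latter call held in each of 21 alternatives and the former in 18 of 20, without a call in a fit of the 10 libraries alone (FDR 0.0661) and with lane as a term (FDR 0.379). Between Ag+Costim and Ag the log2 difference was -0.35 ± 0.31 (edgeR FDR 0.478).

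Bcl2l11 (ENSMUSG00000027381.16, chr2:128126038-128162547, plus strand) encodes BIM, which binds all the survival proteins. It had 58.4, 41.7, 52.5, 47.2 and 35.2 CPM in Naive 1 to 5. The 5 Ag libraries had, in order, 93.2, 18.9, 21.2, 98.3 and 11.3 CPM, and Ag+Costim 1 to 5 had 16.9, 16.2, 20.4, 8.24 and 15.3 CPM. Ag 1 and Ag 4 were above every Naive library and Ag 2, Ag 3 and Ag 5 were below every Naive library, while all Ag+Costim libraries were below Naive. The Ag mean of 48.6 ± 43.3 CPM (SD, n = 5) therefore describes no single Ag library. Ag 1 and Ag 4 also had the highest summed B cell markers of their group (1421 and 1663 CPM, against 581 to 1329) and CD4 T cell markers (23.4 and 36.8 CPM, against 3.70 to 12.1), and the part of these in the Bcl2l11 levels was not tested. Bcl2l11 fell 2.74-fold in Ag+Costim vs Naive (log2 fold change -1.45 ± 0.47 SE, edgeR FDR 0.0260). That call was lost when Naive 1 (FDR 0.0619), Naive 3 (FDR 0.0530), Naive 4 (FDR 0.0533), Ag+Costim 4 (FDR 0.0847) or Ag+Costim 5 (FDR 0.0529) was left out, with log2 differences between -1.21 and -1.46. Within lane 3 the log2 difference was -1.83 (FDR 0.0208), and with lane as a term it was -1.83 (FDR 0.0775), and with no filter on low counts -1.30 (FDR 0.106). Between Ag and Naive the log2 difference was 0.06 ± 0.46 (edgeR FDR 0.941), and it was -0.27 without Ag 1, -0.35 without Ag 4 and -0.01 without Naive 5.

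Bcl2l11 had the largest log2 difference of any member in Ag+Costim vs Ag, at -1.51 ± 0.47 (edgeR FDR 0.0856). It passed in DESeq2 (-1.55, FDR 0.0154), without Ag 2 (-1.64, edgeR FDR 0.0397) and without Ag 5 (-1.75, edgeR FDR 0.0228). Of 21 alternatives, 5 called it. The difference was -1.19 without Ag 1 (edgeR FDR 0.195), -1.09 without Ag 4 (edgeR FDR 0.170) and -1.30 within lane 2 (edgeR FDR 0.628). With lane as a term it was -1.31 (edgeR FDR 0.360). Ag 2 and Ag 5 are the libraries of low input, and the part of input amount in their levels was not tested. With both left out, 7 of 10 members passed in Ag+Costim vs Ag, where 50.5% of all genes passed: Bcl2l1, Bak1, Bax, Bid and Pmaip1 higher, and Bcl2 and Bcl2l11 lower. This setting was chosen after the data were seen. Ag 2 and Ag 5 lay within the Ag+Costim range of both Bcl2 and Bcl2l11.

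Bcl2 and Bcl2l11 are set against each other because BIM is a main ligand of BCL2. In TPM, Bcl2 exceeded Bcl2l11 by 6.33, 5.14, 4.48, 7.19 and 2.13 times in Naive 1 to 5. This ratio ran from 0.845 (Ag 4) to 1.86 (Ag 3) in Ag, and in Ag+Costim 1 to 5 it was 1.95, 1.74, 0.958, 1.87 and 1.28. All stimulated libraries had a lower ratio than all Naive libraries, and Ag and Ag+Costim overlapped. The ratio was a description of transcript levels per length and was not tested.

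**Figure D3:**
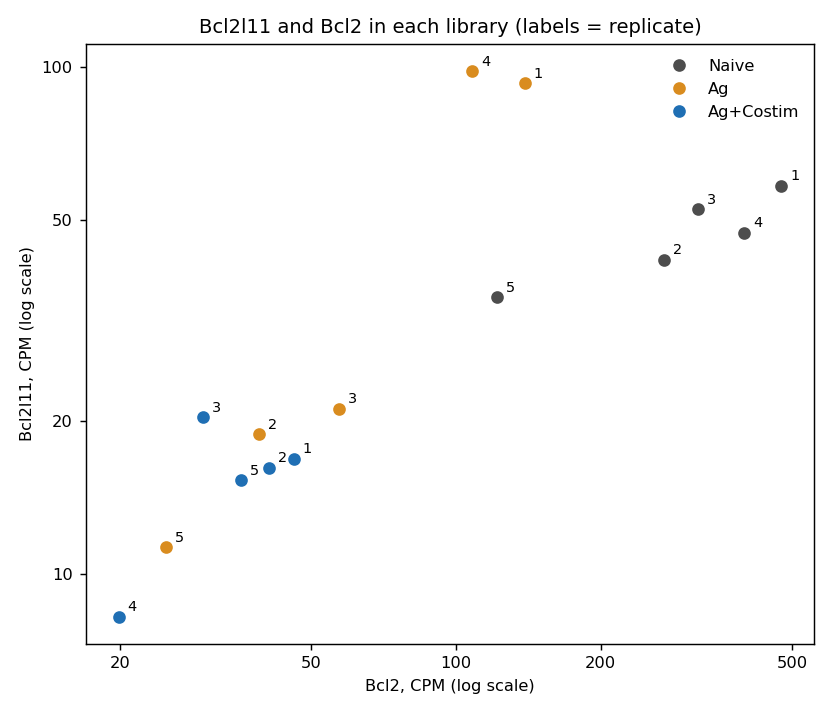
Bcl2l11 against Bcl2 in each library, in CPM on log axes, with replicate numbers beside the points and colours for the 3 groups. Ag 1 and Ag 4 lie apart from all other libraries at 93.2 and 98.3 CPM of Bcl2l11, while Ag 2 and Ag 5 lie within the Ag+Costim range on both axes and Ag 3 just above it on both (57.1 CPM of Bcl2, 21.2 CPM of Bcl2l11).

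A start region each of Bcl2l11 and Bbc3 is shown. Both genes were lower in Ag+Costim than in Naive, and these windows hold the FOXO core GTAAACA, on either strand. They were picked for the match. Another start of Bcl2l11 held none of the searched letters, and other starts of Bbc3 held no FOXO letters. The windows of Bcl2 and Mcl1, which were also lower, held no FOXO letters. FOXO factors are known activators of both genes in cells deprived of growth signals. The windows are those of RefSeq on GRCm38.p6, written in the direction of the gene, with the match in capitals.
Bcl2l11 (chr2:128125788-128126087, plus strand): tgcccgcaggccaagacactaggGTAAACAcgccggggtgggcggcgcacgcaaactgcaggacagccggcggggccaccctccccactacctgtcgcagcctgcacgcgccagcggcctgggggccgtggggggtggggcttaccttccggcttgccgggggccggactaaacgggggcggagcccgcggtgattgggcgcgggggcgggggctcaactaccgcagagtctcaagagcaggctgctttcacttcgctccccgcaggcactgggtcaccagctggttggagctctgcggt
Bbc3 (chr7:16310011-16310310, plus strand): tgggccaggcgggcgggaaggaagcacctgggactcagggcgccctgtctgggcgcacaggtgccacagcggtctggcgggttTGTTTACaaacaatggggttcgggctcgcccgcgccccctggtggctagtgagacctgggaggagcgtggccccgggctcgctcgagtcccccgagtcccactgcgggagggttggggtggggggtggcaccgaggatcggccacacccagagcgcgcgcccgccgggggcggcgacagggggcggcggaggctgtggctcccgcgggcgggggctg
The letters GTAAACA occurred in 3.65% of all 32851 RefSeq start windows of the mouse. Among the 17 windows of the 12 genes with an entry here (members and copies, Pmaip1 aside), the FOXO letters occurred in 2, the NF-kB motif (GGG, any 3 bases, TTCC) in 3 (Bcl2l1, Mcl1 and another start of Bbc3), the E-box CACGTG in 2 (Bax and another start of Bbc3) and the STAT5 letters TTCNNNGAA in 0. The shares of all windows were 5.56% for NF-kB, 7.15% for the E-box and 8.30% for STAT5. No searched letters occurred in the windows of Bcl2 and the Bcl2a1 copies. A match describes the letters alone.

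Bid (ENSMUSG00000004446.12, chr6:120891930-120916853, minus strand) encodes the BH3-only protein that caspase-8 cleaves downstream of death receptors. It had 38.8, 41.1, 49.7, 43.6 and 48.9 CPM in Naive 1 to 5. Ag 1 to 5 had 48.5, 61.0, 40.7, 53.3 and 51.9 CPM, and Ag+Costim 1 to 5 had 59.2, 62.6, 63.7, 60.6 and 61.6 CPM. All Ag+Costim libraries were above all Naive libraries, and Ag lay between with overlap on either side. Bid rose 1.53-fold in Ag+Costim vs Naive (log2 fold change 0.62 ± 0.13 SE, edgeR FDR 0.00491), and the call held in 20 of 21 alternatives. The log2 differences in Ag vs Naive (0.30 ± 0.13, edgeR FDR 0.139) and Ag+Costim vs Ag (0.32 ± 0.13, edgeR FDR 0.131) did not pass, and the latter passed without Ag 2 (0.52, FDR 0.0391). The latter was called in 3 of 21 alternatives. Bcl2l13, a distant relative on the other strand, shares 17.7% of the exon bases of Bid and had means of 59.1, 59.2 and 65.5 CPM in Naive, Ag and Ag+Costim.

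Pmaip1 encodes NOXA, which binds MCL1 and A1. Naive 1 to 5 had 24.4, 35.3, 21.0, 19.7 and 44.4 CPM, Ag 1 to 5 had 25.7, 46.6, 35.1, 25.3 and 36.7 CPM, and Ag+Costim 1 to 5 had 48.2, 41.6, 35.0, 42.9 and 42.1 CPM. Naive 5 and Naive 2 were the high Naive libraries and Ag 2 the highest Ag library, so all groups overlapped. The log2 difference in Ag+Costim vs Naive was 0.67 ± 0.26 (edgeR FDR 0.0509). It passed without Naive 5 (0.93, edgeR FDR 0.00784) and in DESeq2 (0.65, FDR 0.0299), and in 8 of 21 alternatives in all. It was 0.33 ± 0.26 between Ag and Naive (edgeR FDR 0.393), and 0.34 ± 0.26 between Ag+Costim and Ag (edgeR FDR 0.413).

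**Figure D4:**
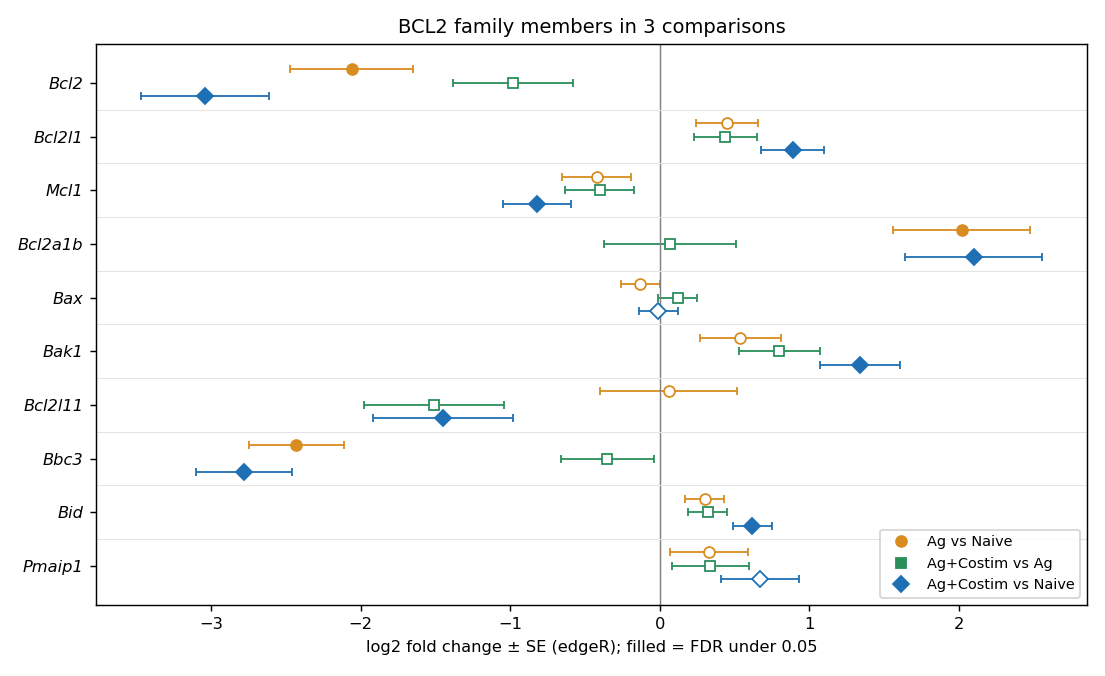
Log2 fold changes of the 10 members in 3 comparisons, with bars of 1 SE from edgeR and filled symbols for an FDR under 0.05. Circles (Ag vs Naive) are filled for 3 members, squares (Ag+Costim vs Ag) for 0 and diamonds (Ag+Costim vs Naive) for 8. Among the diamonds, Bcl2 (-3.04) and Bbc3 (-2.78) lie furthest to the left and Bcl2a1b (4.28-fold higher) furthest to the right.

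Counted by groups that did not overlap in CPM, 2 of 10 members were separated in Ag vs Naive (Bcl2a1b and Bbc3), against 3.63% of all genes tested. The count was 0 in Ag+Costim vs Ag, against 7.04%. It was 7 in Ag+Costim vs Naive (Bcl2, Mcl1, Bcl2a1b, Bak1, Bcl2l11, Bbc3 and Bid), against 45.6%. Within lane 3, where 2 Ag+Costim libraries met all Naive libraries, 6 of 10 members passed in Ag+Costim vs Naive (34.7% of genes). Within lane 2, where 3 Ag+Costim libraries met all Ag libraries, edgeR called 0 of 10 in Ag+Costim vs Ag (0% of genes). With lane as a term in the fit, 0 of 10 members were called in Ag vs Naive (0% of genes), 0 of 10 in Ag+Costim vs Ag (0% of genes) and 5 of 10 in Ag+Costim vs Naive (5.43% of genes). Of these 5 members, 2 were higher and 3 lower, beside 258 and 685 of all 17366 genes. The median log2 difference of all genes in Ag+Costim vs Naive was -0.08 under the scaling used here and -0.23 when only library totals were used. The members called in that comparison had the same direction under both.

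Ranked by level per length, Bax came first in every group, with 214 ± 26.7 TPM for Naive, 176 ± 23.6 for Ag and 197 ± 10.2 for Ag+Costim (SD, n = 5). In Naive it was followed by Bcl2 (94.6 ± 42.3 TPM), Mcl1 (75.3 ± 5.99), Bcl2a1b (41.0 ± 33.9), Bid (31.7 ± 4.62), Bbc3 (26.4 ± 10.9), Bcl2l11 (18.4 ± 3.37), Pmaip1 (16.8 ± 5.71), Bcl2l1 (16.6 ± 5.52) and Bak1 (1.84 ± 0.667). All neighbours from Bcl2 to Bcl2l1 overlapped in range, and Bax and Bak1 did not overlap with their neighbours. In Ag, Bcl2a1b was second (147 ± 27.6 TPM), overlapping Bax, and Bcl2 was at rank 5 (20.5 ± 14.7 TPM). In Ag+Costim the order was Bax, Bcl2a1b (163 ± 8.40 TPM), Bid (44.0 ± 1.40), Mcl1 (38.6 ± 10.1), Bcl2l1 (27.8 ± 2.33), Pmaip1 (24.0 ± 2.17), Bcl2 (9.15 ± 2.91), Bcl2l11 (6.19 ± 2.11), Bak1 (4.23 ± 0.667) and Bbc3 (3.64 ± 0.626). There the ranges of Bax and Bcl2a1b, of Bcl2a1b and Bid, and of Pmaip1 and Bcl2 did not overlap. Levels of Bcl2a1b rest on reads that copies can share.

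Transcript shares of the members were also compared. Counts were assigned to annotated transcripts by StringTie, and single reads of 50 bases tell few of them apart. Bcl2-201, the 7191-base transcript with 2 exons, held 75.2% ± 5.02 of Bcl2 counts in Naive (SD, n = 5), 79.0% ± 6.12 in Ag and 85.2% ± 3.12 in Ag+Costim, and Bcl2-202, of 1 exon and 2841 bases, held the rest. Every Ag+Costim library (82.0% to 90.0%) was above every Naive library (70.5% to 81.4%) in the share of Bcl2-201. For Bcl2 in this comparison, edgeR's diffSpliceDGE gave p 0.542 (FDR 0.988). How many of all transcripts were separated in this way was not counted. The main BIM transcript, Bcl2l11-205, held 66.8% ± 16.0 of its counts in Naive, 64.4% ± 4.35 of them with Ag and 69.5% ± 34.0 with Ag+Costim, where single libraries ran from 22.3% to 97.8%. Bax-203 held 59.5% ± 4.15 of Bax in Naive, 40.8% ± 14.8 with Ag and 43.8% ± 5.64 with Ag+Costim. Its Naive range (53.0% to 64.4%) lay above its Ag+Costim range (37.3% to 51.6%), and diffSpliceDGE gave p 0.293 (FDR 0.748) for Bax. Bax-201 held 19.7% ± 11.3, 41.6% ± 22.8 and 42.5% ± 8.78.

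For Bcl2l1 the assignment changed from library to library. Bcl2l1-201 held 1.53%, 93.7%, 12.5%, 0.307% and 20.2% in Naive 1 to 5, and Bcl2l1-202 held 90.5%, 0%, 78.8%, 88.7% and 74.0%. The retained-intron transcript Bbc3-203 held 3.32% ± 1.26 of Bbc3 in Naive, 9.09% ± 10.6 with Ag and 14.2% ± 8.87 with Ag+Costim, on far fewer counts in the stimulated groups. Mcl1, Bak1, Bid, Pmaip1 and Bcl2a1b each had more than 90% of counts in a single transcript in every library. Of the 5 members with at least 2 transcripts past the filter (Bcl2, Bcl2l1, Bcl2l11, Bax and Bbc3), edgeR's diffSpliceDGE called 0 in each comparison. The share of all 7501 genes called was 1.47% when Ag was compared with Naive, 1.80% when Ag+Costim was compared with Ag and 2.56% when it was compared with Naive. The counts at an unadjusted p under 0.05 were 0, 0 and 1, the last being Bbc3 (p 0.0203, FDR 0.213).

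Over the 15 libraries, the genes whose log2(CPM + 1) pattern was most like that of Bcl2 were Zeb1 (Pearson r 0.986), Ccdc88c (0.985) and Satb1 (0.985), of 11324 genes whose mean reached 5 CPM. Those most like Bcl2l11 were Tnfsf8 (0.983), Ifi214 (0.980) and Pecam1 (0.977), and those most like Bak1 were Atp8b4 (0.868), Tpm1 (0.863) and Ifi205 (0.851). The closest gene was Bbs9 for Bbc3 (0.987), Casp1 for Bcl2a1b (0.990), Pptc7 for Mcl1 (0.965), Aunip for Pmaip1 (0.965), Arhgap33 for Bcl2l1 (0.949), Emd for Bid (0.923) and Gps2 for Bax (0.873). These values are descriptions. The 15 points share their groups, lanes and depth.

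The wider pathway was read from 11 lists with 101 genes, of which 96 were tested. In Ag vs Naive, 6 were called higher and 6 lower (12 of 96, beside 6.71% of all genes), and the median log2 difference was 0.10, against 0.08 over all genes. This count fell to 6 when Naive 1 (beside 255 of 18006 genes) or Naive 4 (273 of 18014) was left out. It was 7 without Naive 3 (267 of 18085) or Ag 2 (513 of 18092), and 36 without Naive 5 (3871 of 17981). For Ag+Costim vs Ag, edgeR called 0 of 96, with 23 at an unadjusted p under 0.05, beside 4647 of all 17366 genes. DESeq2 called 9, beside 14.6% of all genes. The edgeR count was 11 without Ag 2, beside 2679 of 18092 genes, and 15 without Ag 5, beside 3573 of 18108 genes. Against Naive, 28 were called higher and 24 lower in Ag+Costim (52 of 96, beside 44.7% of all genes), with a median of 0.04 against -0.08 over all genes. The 52 were 31 without Naive 1, beside 3935 of 18006 genes, and 32 without Naive 4, beside 3892 of 18014 genes. Beside the counts of each list stand the shares of all genes called, 3.05% higher and 3.66% lower in Ag vs Naive, and 21.0% higher and 23.6% lower in Ag+Costim vs Naive. The lists hold 2 to 13 tested genes each, and their counts are descriptions.

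**Figure D5:**
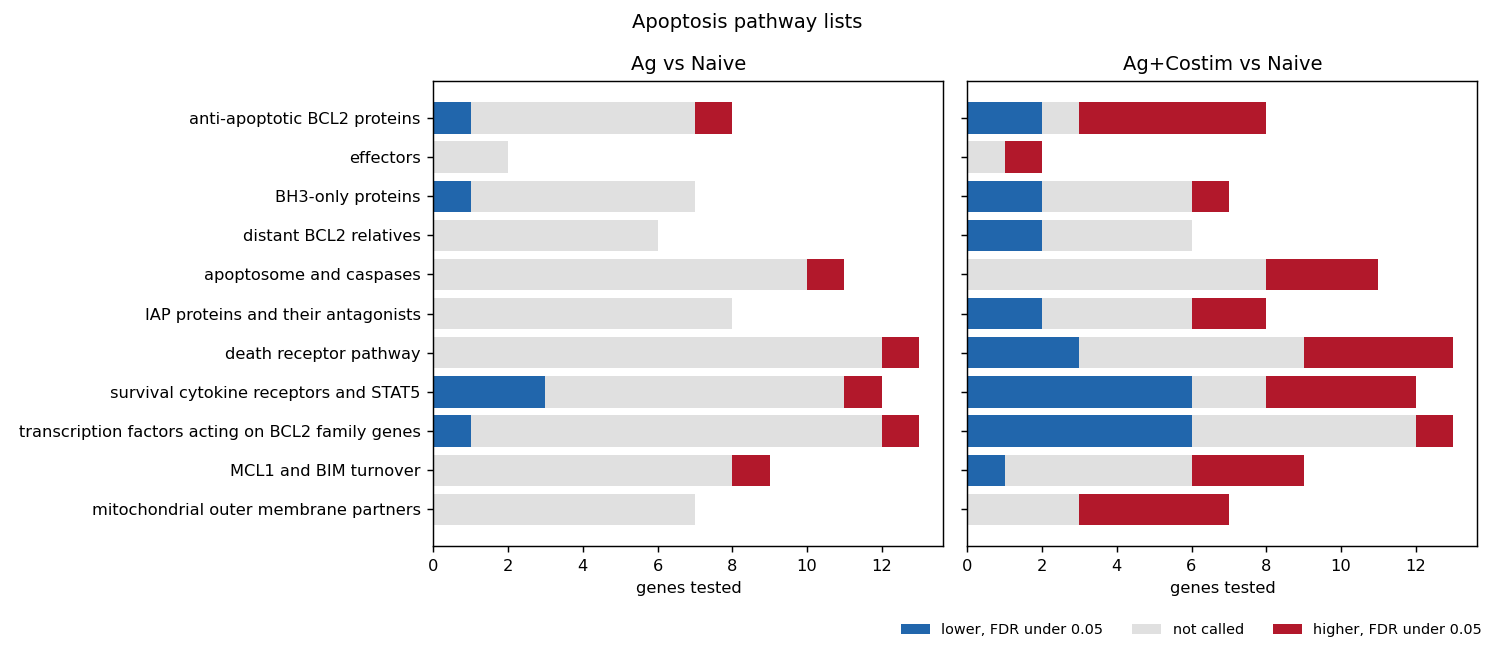
Number of tested genes in each of 11 apoptosis lists that were lower, not called or higher in Ag vs Naive and in Ag+Costim vs Naive (edgeR, FDR under 0.05). In Ag+Costim vs Naive, 6 of 13 transcription factors were lower and 1 was higher. Of 12 genes of survival cytokine receptors and their signalling, 6 were lower and 4 higher. Of 7 genes listed as membrane partners, 4 were higher and 0 lower. Over all genes, 23.6% were lower and 21.0% higher.

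The receptors and signalling genes that sustain survival through cytokines moved in both directions. Of 12 genes, 1 was higher and 3 were lower in Ag vs Naive, and in Ag+Costim vs Naive 4 were higher and 6 lower. Il7r, the IL-7 receptor chain whose signal maintains Bcl2 in resting T cells, had 783, 644, 779, 712 and 235 CPM in Naive 1 to 5. It ranged from 84.5 to 273 CPM in Ag and from 66.6 to 93.8 in Ag+Costim, so that Ag 4 exceeded Naive 5. Il7r fell in Ag vs Naive (631 ± 228 to 152 ± 88.8 CPM, edgeR FDR 0.00874) and in Ag+Costim vs Naive (log2 fold change -2.82 ± 0.35 SE, edgeR FDR 0.000954). Il4ra fell as well, from 178 ± 74.1 CPM in Naive to 58.8 ± 20.3 in Ag and 49.8 ± 14.1 in Ag+Costim (edgeR FDR 0.0126 and 0.00268). Il2rb, the chain shared by the IL-2 and IL-15 receptors, rose from 584 ± 239 CPM to 946 ± 63.1 and 1211 ± 64.0 (edgeR FDR 0.0452 and 0.00334). The kinase genes Pim1 (Ag vs Naive, 31.4 ± 4.74 to 11.9 ± 6.84 CPM, edgeR FDR 0.0362) and Pim2 (Ag+Costim vs Naive, 202 ± 84.5 to 74.6 ± 14.5 CPM, edgeR FDR 0.00892) fell. Il15ra (log2 fold change 0.57 ± 0.17 SE, edgeR FDR 0.0193) and Stat5a (0.28 ± 0.10, edgeR FDR 0.0387) rose in Ag+Costim vs Naive.

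Among transcription factors known to act on the family, 1 of 13 was higher and 1 lower in Ag vs Naive, and 1 was higher and 6 were lower in Ag+Costim vs Naive. Foxo1 had 166, 117, 135, 159.8 and 84.1 CPM in Naive 1 to 5 and 36.4, 45.4, 57.3, 29.9 and 36.7 in Ag+Costim 1 to 5. In Ag 1 to 5 it had 122, 38.7, 49.9, 111 and 32.0 CPM, with Ag 1 and Ag 4 high as for Bcl2l11 and Mcl1. Foxo1 fell in Ag+Costim vs Naive (log2 fold change -1.53 ± 0.31 SE, edgeR FDR 0.00490), as did Bach2 (-2.83 ± 0.48, edgeR FDR 0.00237) and Tcf7 (-1.35 ± 0.33, edgeR FDR 0.00920), a factor of naive and memory cells. Nfkb1, a subunit of NF-kB, rose from 53.0 ± 7.70 CPM in Naive to 73.1 ± 12.9 in Ag and 65.5 ± 12.7 in Ag+Costim (edgeR FDR 0.0349 and 0.0208). Myc fell from 136 ± 41.3 to 61.7 ± 7.14 CPM in Ag vs Naive (edgeR FDR 0.00781).

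In a list of outer membrane partners, 4 of 7 genes were higher and 0 lower in Ag+Costim vs Naive, beside 21.0% and 23.6% of all genes. Not all genes of this list encode proteins of that membrane. Vdac1, a channel of the outer membrane, rose from 77.3 ± 24.5 to 222 ± 18.1 CPM (log2 fold change 1.66 ± 0.27 SE, edgeR FDR 0.00230). Vdac2, which holds BAK in the membrane, had 148, 175, 170.4, 149.9 and 213 CPM in Naive 1 to 5 and 261, 249, 250.3, 285 and 253 in Ag+Costim 1 to 5, without overlap. It rose by 0.74 ± 0.22 on the log2 scale (edgeR FDR 0.0180), and Vdac3 by 0.99 ± 0.28 (edgeR FDR 0.0158). Cycs, which encodes cytochrome c (1.12 ± 0.37, edgeR FDR 0.0286), and Aifm1 (0.99 ± 0.25, edgeR FDR 0.0104) rose in Ag+Costim vs Naive.

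Of 13 death receptor genes, 1 was higher in Ag vs Naive, and 4 were higher and 3 lower in Ag+Costim vs Naive. Tradd, the adaptor of TNF receptor 1, rose in both (log2 fold change 0.50 ± 0.10 SE, edgeR FDR 0.0127, and 0.62 ± 0.10, edgeR FDR 0.00177). Tnfrsf1b (94.7 ± 38.4 to 177 ± 7.21 CPM, edgeR FDR 0.00667) and Traf2 (0.35 ± 0.09, edgeR FDR 0.0119) rose in Ag+Costim vs Naive. Cflar, which encodes the caspase-8 inhibitor c-FLIP, fell (103 ± 27.1 to 49.7 ± 3.61 CPM, edgeR FDR 0.00920), as did Tnfrsf1a (-0.68 ± 0.15, edgeR FDR 0.00733) and Tnfsf10 (-0.82 ± 0.21, edgeR FDR 0.0115), the gene of TRAIL.

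Of 8 IAP genes and antagonists tested, 0 were called in Ag vs Naive by edgeR, with 1 at an unadjusted p under 0.05, whereas 2 were higher and 2 lower in Ag+Costim vs Naive. Birc5, better known as a mitotic gene, had 40.4, 170.5, 20.8, 17.6 and 374 CPM in Naive 1 to 5 and 503 to 556 CPM in Ag+Costim (log2 fold change 2.21 ± 0.84 SE, edgeR FDR 0.0449). In Ag 1 to 5 it had 96.1, 592, 386, 83.3 and 663 CPM, with Ag 1 and Ag 4 low. Htra2 rose (0.49 ± 0.16, edgeR FDR 0.0262), and the ubiquitin ligases Birc2 (-0.62 ± 0.23, edgeR FDR 0.0436) and Birc6 (-0.94 ± 0.31, edgeR FDR 0.0257) fell. Of 9 genes of MCL1 and BIM turnover, 1 was higher in Ag vs Naive, and 3 were higher and 1 lower in Ag+Costim vs Naive. Huwe1, a ubiquitin ligase of MCL1, fell (-0.87 ± 0.25, edgeR FDR 0.0163), while Dynll2 (1.38 ± 0.35, edgeR FDR 0.0117), Dynll1 (0.54 ± 0.17, edgeR FDR 0.0230) and Mapk3 (0.44 ± 0.16, edgeR FDR 0.0374) rose. Dynll1, a dynein light chain that binds BIM, also rose in Ag vs Naive (0.70 ± 0.17, edgeR FDR 0.0285).

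Among relatives outside the 10 members, the BH3-only gene Bmf fell short of the threshold in Ag+Costim vs Naive (3.99 ± 2.15 against 1.03 ± 0.764 CPM, edgeR FDR 0.0555), and Bad had 23.5 ± 2.15 against 25.0 ± 2.52 CPM (edgeR FDR 0.107). Of 6 distant relatives, 2 were lower in Ag+Costim vs Naive: Bnip3l, a mitophagy receptor (144 ± 37.1 to 74.7 ± 8.72 CPM, edgeR FDR 0.0226), and Bcl2l14 (2.01 ± 0.873 to 1.04 ± 0.215 CPM, edgeR FDR 0.0495). Bmf and Bad were chosen after their values were seen.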

How the data were processed

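RNA of 15 libraries, 5 per group, was made into libraries with a SMART-Seq v4 and Nextera XT kit, which does not mark strand. Per the submitters' processing notes and the study's methods, the authors aligned reads to mm10 with HISAT2 2.1.0, used SAMtools 1.9 and obtained estimated counts per gene and per transcript with StringTie 2.1.0, deposited as whole numbers and not normalized. The authors' own tests used DESeq2 1.30.1 in R 4.0.5. A sequencing core table, deposited with them, gives per the file headers the count of sequenced reads, the percent aligned, the percent called RiP (not spelled out), the lane and the input amount.

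Of 81881 entries in the gene table, 55536 were matched to GENCODE M21. The 26248 entries named by a number alone held 0.0818% of counts and were left out of totals and tests, as were 97 other entries with 0 counts. Of 168207 transcripts, 141862 were matched. A deposited FPKM table was not used, since its columns for Ag 1 and Naive 5 are identical.

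CPM is a count scaled to the same total of matched genes in every library. TPM was computed from transcript counts and annotated spliced lengths. Tests used edgeR 4.0.16 in R 4.3.3 (quasi-likelihood, robust, TMM scaling, filterByExpr, all 15 libraries in 1 fit, a coefficient of variation of 0.431), with Benjamini-Hochberg adjustment over 17366 genes. DESeq2 1.42.0 and limma 3.58.1 (voom with quality weights) were alternatives, beside other scalings, no filter, a lane term and left-out libraries. Leaving out Ag 3 with Naive 5, or Ag 2 with Ag 5, was chosen after seeing the data. The fitting code was tested on simulated data. Intervals of counts were not given, and the depth limits genes with few counts, such as Bak1.

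The members and gene lists were chosen with earlier results of these data known. Named were the members, the near copies of Bcl2a1b, up to 3 genes per list and direction with the smallest FDR among those called, the closest genes by correlation among genes of at least 5 CPM, and transcripts with at least 10% of a member's counts in a group. A gene that this rule names is not reported here. Replicate numbers did not pair the libraries: the correlation of same-numbered deviations ran from -0.324 to 0.47. No 2 libraries of a group agreed within sampling noise, with a chi-square per degree of freedom of at least 5.62.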

Additional observations from a re-analysis of the deposited data

Results flagged for a closer look

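Bcl2l1 in Naive 5 was 40.8 CPM, against 19.6 to 24.8 CPM in the other Naive libraries. The gap to its nearest neighbour was 0.751 of the range of the group, above Dixon's critical value of 0.71 for 5 libraries. It was the only such library among 30 groups tested (10 members in 3 groups), and chance marks about 1 in 20 groups. Naive 5 also had the highest Birc5 (374 CPM) and summed myeloid markers (1036 CPM) of its group.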

How the results depend on the processing

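Bcl2, Bbc3 and Bcl2a1b kept their direction and their call in Ag+Costim vs Naive under each of 21 alternatives, and no called member changed direction. The cause of a lost or gained call was not tested.

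Between Ag and Naive, the count of all genes called (1165) was 2778 with DESeq2, 208 with no filter, 6 in a fit of 10 libraries, 0 with lane as a term, 3473 with voom and 3945 without Ag 3 and Naive 5. The members called (3) were 0 with 10 libraries, 0 with a lane term and 5 without Ag 3 and Naive 5. The pathway genes called (12) were 23, 7, 0, 0, 27 and 34 in the order given for all genes. They were 5 without the low-input Ag 2 and Ag 5, beside 890 of 19290 genes.
Between Ag+Costim and Ag, all genes called (6) were 2533 with DESeq2, 3 with no filter, 0 with 10 libraries, 0 with the replicate block, 0 with a lane term, 0 within lane 2, 9969 with voom, 989 without Ag 3 and Naive 5, and 9751 without Ag 2 and Ag 5. Members called (0) were 2 with DESeq2, 8 with voom and 7 without Ag 2 and Ag 5, and pathway genes (0) were 9, 57 and 40, and 4 without Ag 3 and Naive 5.
Between Ag+Costim and Naive, all genes called (7755) were 4158 with no filter, 943 with a lane term and 13638 with voom. Members called (8) were 5 with a lane term, and pathway genes (52) were 29, 14 and 79. Transcript usage in this comparison, with 0 of 5 members called in the main fit, called 1 of 8 with no filter, beside 829 of 16050 genes. It called 1 of 5 with 10 libraries, beside 527 of 6635 genes, and 1 of 5 with limma's diffSplice, beside 1425 of 7501 genes.
With 1 library left out, all genes called ran from 255 to 3871, 0 to 3573 and 3892 to 9164 in Ag vs Naive, Ag+Costim vs Ag and Ag+Costim vs Naive, members from 2 to 4, 0 to 4 and 6 to 9, pathway genes from 6 to 36, 0 to 15 and 31 to 60, and transcript usage stayed at 0 members. In Ag vs Naive the lowest counts of all genes were those without Naive 1 (255), Naive 3 (267) and Naive 4 (273).

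Some differences that passed no test changed sign. Bcl2l11 in Ag vs Naive was -0.18 with the replicate block, -0.52 with a lane term, and, with 1 library left out, ran from -0.35 (without Ag 4) to 0.30 (without Ag 5), with -0.27 without Ag 1 and -0.01 without Naive 5. Pmaip1 in Ag vs Naive was -0.07 without Ag 2 and Ag 5. Bcl2a1b in Ag+Costim vs Ag ran from -0.03 (without Ag 1) to 0.25 (without Ag 2). Bax in Ag+Costim vs Naive was 0.16 with no filter, 0.02 without Ag 3 and Naive 5, 0.12 without Ag 2 and Ag 5, and -0.05 (without Naive 5) to 0.11 (without Ag+Costim 4) with 1 library left out.
With the replicate number as a block, 3, 0 and 9 members and 1660, 0 and 7833 genes were called in Ag vs Naive, Ag+Costim vs Ag and Ag+Costim vs Naive, where Pmaip1 passed as well (0.77, edgeR FDR 0.0193). The numbers are not a pairing in the labels, and not every library correlated best with its own number. Library totals alone gave 37.2% of called genes as higher in Ag+Costim vs Naive, against 47.0%. Ranking by the longest transcript left 5, 7 and 10 of 10 members at their rank in Naive, Ag and Ag+Costim.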

Other observations

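Foxo3, another FOXO factor and not among those chosen for naming, had 11.3, 10.2, 11.2, 12.5 and 2.96 CPM in Naive 1 to 5 and 1.39 to 2.23 CPM in Ag+Costim, and it fell in Ag+Costim vs Naive (log2 fold change -2.13 ± 0.53 SE, edgeR FDR 0.0106). In Ag 1 to 5 it had 11.1, 1.62, 6.99, 9.11 and 1.000 CPM, so Ag 1 and Ag 4 were again the highest of the group. Trp53, the gene of p53, was 209 ± 24.5 CPM in Naive and 187 ± 4.82 in Ag+Costim (SD, n = 5), with a log2 difference of -0.00 ± 0.10 (edgeR FDR 0.987). Foxo3 and Trp53 were chosen after their values were seen.

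The Ag libraries fell apart in the same way for several genes: Ag 1 and Ag 4 had the highest Bcl2, Mcl1, Bcl2l11, Bbc3, Foxo1 and Il7r of the 5, and the lowest Birc5 (96.1 and 83.3 CPM, against 386 to 663). The same libraries had the highest summed B cell markers (1421 and 1663 CPM, against 581 to 1329) and CD4 T cell markers (23.4 and 36.8 CPM, against 3.70 to 12.1), and the part of other cells in the split was not tested. The labels do not divide the Ag group, and these libraries were not compared as groups.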
